A study of Drosophila melanogaster with 13 samples.

Results

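Fatty acid beta-oxidation shortens a fatty acyl chain inside the mitochondrion by repeated removal of acetyl-CoA. The chain is first loaded onto carnitine at the outer mitochondrial membrane, carried across the inner membrane and returned to coenzyme A, and then passes through dehydrogenation, hydration, a second dehydrogenation and thiolytic cleavage. Peroxisomes hold a parallel set of enzymes for very long and branched chains. In adult flies the pathway is best known for the use of stored lipid by the fat body, and in the brain it has been studied mainly in glia.

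The members are 10 genes: *whd*, *CPT2*, *Mcad*, *Arc42*, *Mtpalpha*, *Mtpbeta*, *Echs1*, *scu*, *yip2* and *Mfe2*. They were taken by gene symbol, 10 of the 15682 genes in the count files, and all 10 passed the filter of at least 10 counts in both comparisons. The choice was made with the changes in both comparisons known, so the values of these genes are given as a description, with standard errors and 95% intervals. No p-value of a member is printed, and counts of members called stand only as a description beside the share of all genes called.

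RNA-seq of *Drosophila melanogaster* heads was performed to ask how loss of the histone methyltransferases trr and G9a alters transcription. In the *trr* experiment, the libraries labelled knockdown (n = 2, hereafter the labelled knockdowns) came from flies heterozygous for the hairpin insertion P{TRiP.HMS01019}attP2, with Elav-Gal4/+ and dicer2/+ in the background, and the *trr* controls (n = 2) carried the empty landing site P{y[+t7.7]=CaryP}attP2 in place of the hairpin. Both groups thus held Elav-Gal4, which drives expression in neurons, and dicer2, whereas whole heads were sequenced. In the *G9a* experiment, the libraries labelled mutant (n = 3, hereafter the labelled mutants) carried the allele G9aDD1, and the *G9a* controls (n = 3) were of the precise excision line G9a+/+. Per the labels flies were adults 0 to 5 days old, heads were pooled, and the sexes in a pool are not given in the sources used here.

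Total counts in genes ranged from 18114408 to 28171883 per library. The count of *trr* was 1964 and 2589 in the controls and 2651 and 2265 in the labelled knockdowns, and that of *G9a* was 1087, 1208 and 1011 in the controls and 1526, 1732 and 1547 in the labelled mutants. The label of each group is kept as a label, since neither targeted gene had a lower mean count in it than in its controls, and a count over a whole gene cannot show which part of it was deleted. The study also measured *trr* mRNA by RT-qPCR on separate material, which was not analysed here. Head markers were well counted, with a summed level of 47474 to 82323 counts per 1000000 (CPM) over 5 photoreceptor genes and 5181 to 5814 CPM over 5 neuronal genes. Of 5 fat body genes, *apolpp*, *Lsp2* and *Apoltp* were well counted too, at 2596 to 47252, 2175 to 10296 and 1465 to 3523 counts. The other 2, *Fbp1* and *Fbp2*, were at 0 to 35 and 0 to 31 counts.

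All 10 enzymes were detected in every library, from 186 counts of *CPT2* in one library labelled *G9a* mutant to 15847 counts of *Echs1* in one *trr* control. Levels below are CPM scaled by the trimmed mean of M-values (TMM), and each is compared only with the same gene in other libraries, because exon lengths, which a comparison between genes needs, were not used here. In the *G9a* experiment all 10 enzymes were lower in the labelled mutants, at 45.1% to 68.7% of control, and the groups did not overlap for any of them. Of all 12329 genes tested there, 16.7% were likewise lower without overlap. In the *trr* experiment 8 of 10 had a higher and 2 a lower fitted mean in the labelled knockdowns, at 74.4% to 126% of control. The 2 lower ones, *whd* and *CPT2*, are the carnitine palmitoyltransferases.

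**Figure D1:**
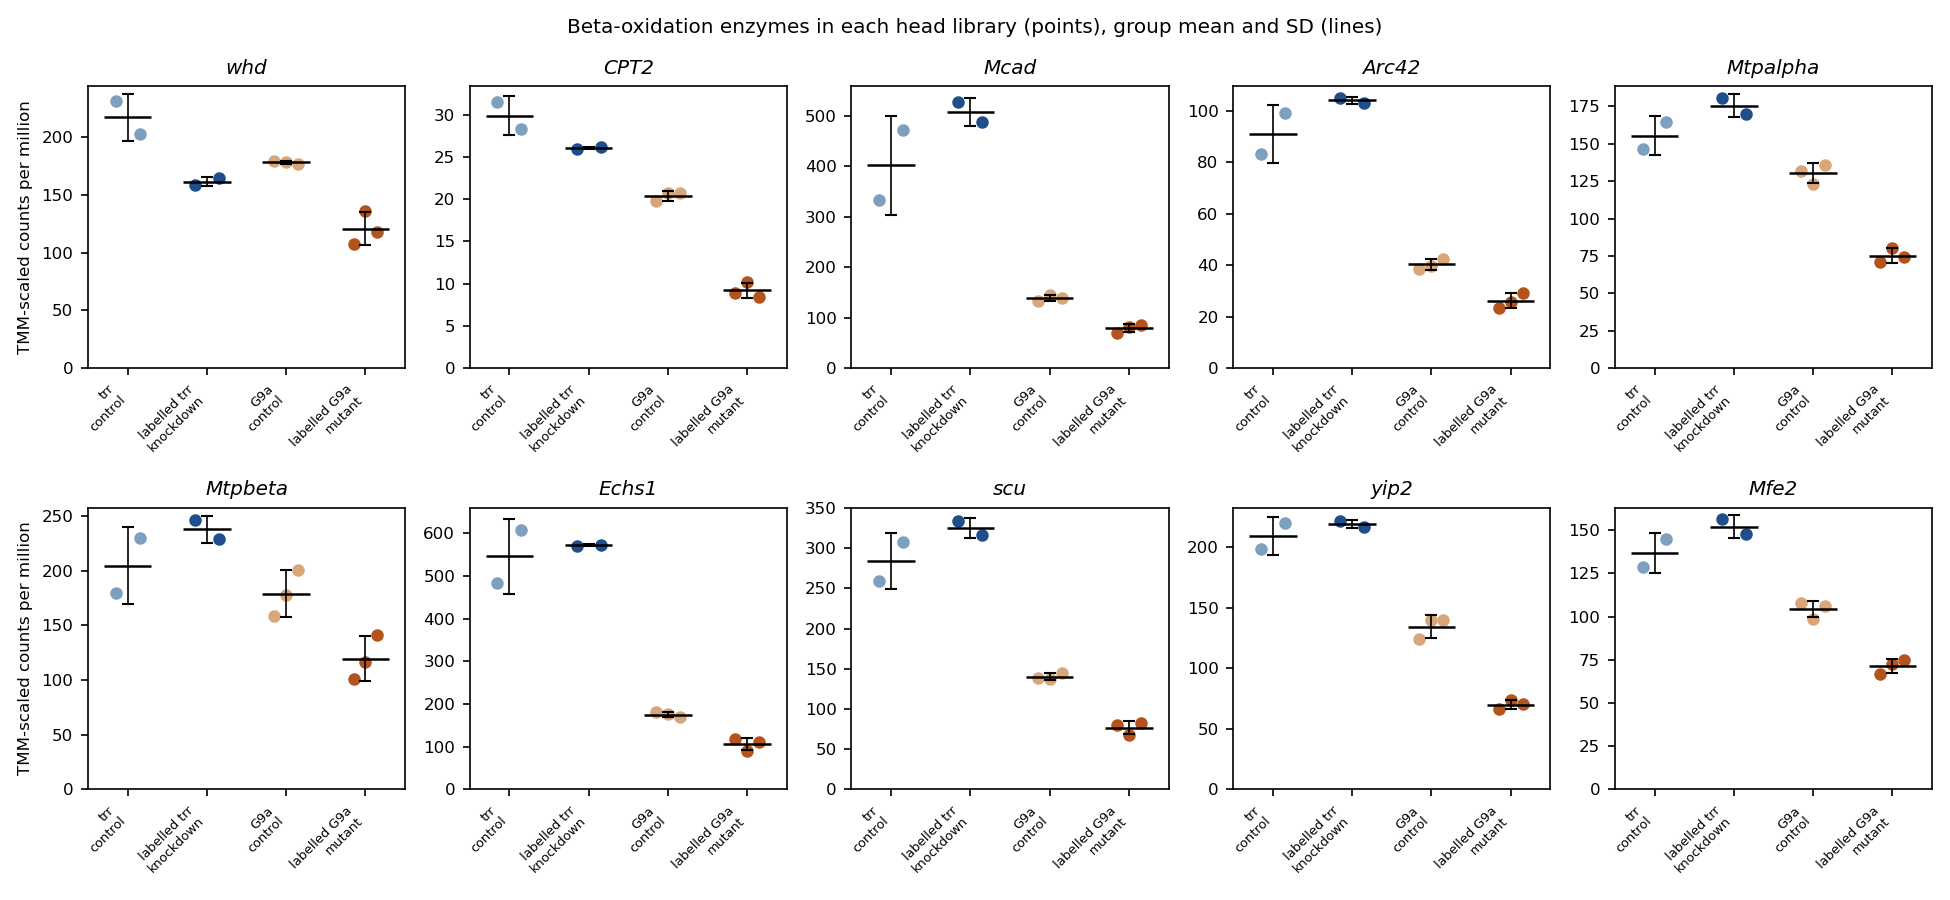
TMM-scaled CPM of each of the 10 enzymes in every head library (points, one per library), with the group mean (horizontal line) and SD (vertical bar); each panel has its own axis from 0. The 3 labelled mutants sit below the 3 *G9a* controls in all 10 panels, as they did for 16.7% of all genes tested. The labelled knockdowns sit above, among or, for *whd* and *CPT2*, below the *trr* controls.

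The carnitine shuttle comes first in the pathway. *whd* encodes carnitine palmitoyltransferase 1 of the outer mitochondrial membrane, the step at which malonyl-CoA limits entry of fatty acids. Its level was 232 and 203 CPM in the *trr* controls and 159 and 165 CPM in the labelled knockdowns. It was 179, 179 and 177 CPM in the *G9a* controls and 108, 136 and 118 CPM in the labelled mutants. *whd* was the one enzyme that was lower in both experiments with a 95% interval below 0 in each. The log2 fold change was -0.43 (SE 0.10, interval -0.67 to -0.18, n = 2 and 2) for *trr* and -0.56 (SE 0.10, interval -0.80 to -0.32, n = 3 and 3) for *G9a*.

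*CPT2* encodes the carnitine palmitoyltransferase of the inner membrane, which returns the acyl group to coenzyme A. It had the fewest counts of the 10 genes. Its level was 31.6 and 28.3 CPM in the *trr* controls and 26.0 and 26.2 CPM in the labelled knockdowns. In the *G9a* experiment it was 19.8, 20.7 and 20.7 CPM in the controls and 8.91, 10.2 and 8.45 CPM in the labelled mutants. The groups did not overlap in either experiment, beside 28.5% of all genes lower without overlap for *trr* and 16.7% for *G9a*. *CPT2* had the lowest fold change of the 10 enzymes in the *G9a* comparison. The log2 fold change was -1.15 (SE 0.11, interval -1.41 to -0.89) for *G9a* and -0.20 (SE 0.12, interval -0.48 to 0.08) for *trr*.

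The 2 palmitoyltransferases did not move in proportion. The log2 ratio of *CPT2* to *whd* counts within a library, which does not depend on the scaling of libraries, averaged -2.86 in the *trr* controls and -2.63 in the labelled knockdowns. It averaged -3.13 (SD 0.05, n = 3) in the *G9a* controls and -3.71 (SD 0.11, n = 3) in the labelled mutants. The ratio thus differed from control by 0.23 in the *trr* and by -0.58 in the *G9a* experiment on the log2 scale, with no overlap of groups in either.

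The first dehydrogenation is represented by *Mcad*, the medium-chain acyl-CoA dehydrogenase, and *Arc42*, an acyl-CoA dehydrogenase whose name comes from a transcriptional coactivator complex. *Mcad* was at 332 and 472 CPM in the *trr* controls and 528 and 488 CPM in the labelled knockdowns. It was at 133, 145 and 138 CPM in the *G9a* controls and at 70.0, 80.7 and 85.0 CPM in the labelled mutants. The 2 *trr* controls were farther apart than the 2 libraries labelled knockdown, and the log2 fold change of *Mcad* in that comparison, 0.34 (SE 0.17, interval -0.08 to 0.75), was the highest of the 10 and the least precise. Without *trr* control replicate 2 it was 0.61 and *Mcad* was called, and without replicate 1 it was 0.10. In the *G9a* comparison it was -0.82 (SE 0.10, interval -1.05 to -0.58).

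*Arc42* was at 83.2 and 99.2 CPM in the *trr* controls and at 105 and 103 CPM in the labelled knockdowns. It was at 38.6, 39.7 and 42.5 CPM in the *G9a* controls and at 23.5, 25.7 and 29.2 CPM in the labelled mutants. It was lower in each of the latter 3 libraries than in any *G9a* control, with a log2 fold change of -0.62 (SE 0.12, interval -0.89 to -0.35), against 0.19 (SE 0.11, interval -0.08 to 0.46) in the *trr* comparison. The log2 ratio of *Mcad* to *Arc42* was 1.70 to 1.86 in the *G9a* controls and 1.54 to 1.65 in the labelled mutants, so *Mcad* was the lower of the pair in proportion there. In the *trr* experiment the ratio overlapped between the groups, with means of 2.12 and 2.28.

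*Mtpalpha* and *Mtpbeta* encode the subunits of the mitochondrial trifunctional protein, which carries out hydration, the second dehydrogenation and thiolysis on long chains. *Mtpalpha* was at 146 and 165 CPM in the *trr* controls and at 181 and 170 CPM in the labelled knockdowns. In the *G9a* experiment it was at 132, 123 and 136 CPM in the controls and 70.7, 80.4 and 74.6 CPM in the labelled mutants. The groups did not overlap in either experiment, with a log2 fold change of 0.17 (SE 0.10, interval -0.06 to 0.41) for *trr* and -0.79 (SE 0.09, interval -1.0 to -0.58) for *G9a*. Of all genes tested, 28.1% were higher without overlap for *trr* and 16.7% lower without overlap for *G9a*.

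*Mtpbeta* was at 179 and 229 CPM in the *trr* controls and at 246 and 229 CPM in the labelled knockdowns. It was at 158, 178 and 201 CPM in the *G9a* controls and at 101, 116 and 141 CPM in the labelled mutants. The *trr* groups overlapped for this subunit, and its spread among the *G9a* libraries was wide, but the highest library labelled mutant was still below the lowest control. The log2 fold change was 0.22 (SE 0.13, interval -0.11 to 0.54) for *trr* and -0.58 (SE 0.15, interval -0.92 to -0.24) for *G9a*. The log2 ratio of the *Mtpalpha* to the *Mtpbeta* subunit overlapped between groups in both experiments, with means of -0.39 and -0.44 for *trr* and -0.45 and -0.66 for *G9a*.

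On shorter chains the remaining steps are carried out by separate enzymes. *Echs1*, a short-chain enoyl-CoA hydratase, was at 484 and 607 CPM in the *trr* controls and at 570 and 573 CPM in the labelled knockdowns. It was at 181, 176 and 169 CPM in the *G9a* controls and at 118, 89.8 and 110 CPM in the labelled mutants. The labelled knockdowns lay between the *trr* controls, so the log2 fold change of *Echs1* was 0.07 (SE 0.12, interval -0.24 to 0.37) for *trr*, and it was -0.73 (SE 0.11, interval -0.98 to -0.47) for *G9a*. Without *trr* control replicate 1 the *trr* value turned to -0.09.

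*scu* encodes a hydroxyacyl-CoA dehydrogenase that is also a subunit of the mitochondrial RNase P. Its level was 259.8 and 308 CPM in the *trr* controls and 334 and 317 CPM in the labelled knockdowns. In the *G9a* experiment it was 139, 137 and 145 CPM in the controls and 79.6, 67.3 and 82.6 CPM in the labelled mutants. Groups were apart in both experiments, upward for *trr* at a log2 fold change of 0.19 (SE 0.11, interval -0.07 to 0.46) and downward for *G9a* at -0.87 (SE 0.10, interval -1.10 to -0.64). Over all genes tested, groups were apart upward for 28.1% in the *trr* experiment and downward for 16.7% in the *G9a* experiment.

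*yip2* encodes a mitochondrial acetyl-CoA acyltransferase, the thiolase that ends each round. It was at 198 and 220.4 CPM in the *trr* controls and at 222 and 217 CPM in the labelled knockdowns. It was at 124, 140.3 and 139.7 CPM in the *G9a* controls and at 66.3, 73.9 and 70.3 CPM in the labelled mutants. After *CPT2* it had the second lowest *G9a* fold change of the 10, -0.94 on the log2 scale (SE 0.09, interval -1.16 to -0.72). In the *trr* comparison the groups overlapped, and the log2 fold change was 0.07 (SE 0.09, interval -0.16 to 0.29), or -0.01 without *trr* control replicate 1. The log2 ratio of *yip2* to *Mtpbeta*, the thiolase-bearing subunit of the trifunctional protein, was lower in the labelled mutants without overlap. It was -0.52 to -0.34 in the *G9a* controls and -1.01 to -0.61 in the labelled mutants. In the *trr* experiment it was 0.14 and -0.06 in the controls and -0.15 and -0.08 in the labelled knockdowns. The gap between the *trr* groups was narrower than the spread between the 2 controls.

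*Mfe2* encodes the peroxisomal multifunctional enzyme, which combines the hydratase and dehydrogenase steps, and is the one member that acts in peroxisomes. It was at 128.5 and 145 CPM in the *trr* controls and at 157 and 148 CPM in the labelled knockdowns. It was at 108, 98.9 and 106 CPM in the *G9a* controls and at 67.0, 72.8 and 74.8 CPM in the labelled mutants. Its *G9a* log2 fold change was the one closest to 0 among the 10, -0.54 (SE 0.09, interval -0.74 to -0.34), and its *trr* value was 0.15 (SE 0.10, interval -0.08 to 0.39). The log2 ratio of *Mfe2* to *Mtpalpha* was -0.35 to -0.29 in the *G9a* controls and -0.14 to 0.01 in the labelled mutants. *Mfe2* was thus less reduced than *Mtpalpha* in these libraries. This does not extend to all mitochondrial members, since *Mtpbeta* (-0.58, interval -0.92 to -0.24) and *whd* (-0.56, interval -0.80 to -0.32) had *G9a* values close to that of *Mfe2*. The ratio of *Mfe2* to *Mtpalpha* averaged -0.19 and -0.21 in the 2 *trr* groups.

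**Figure D2:**
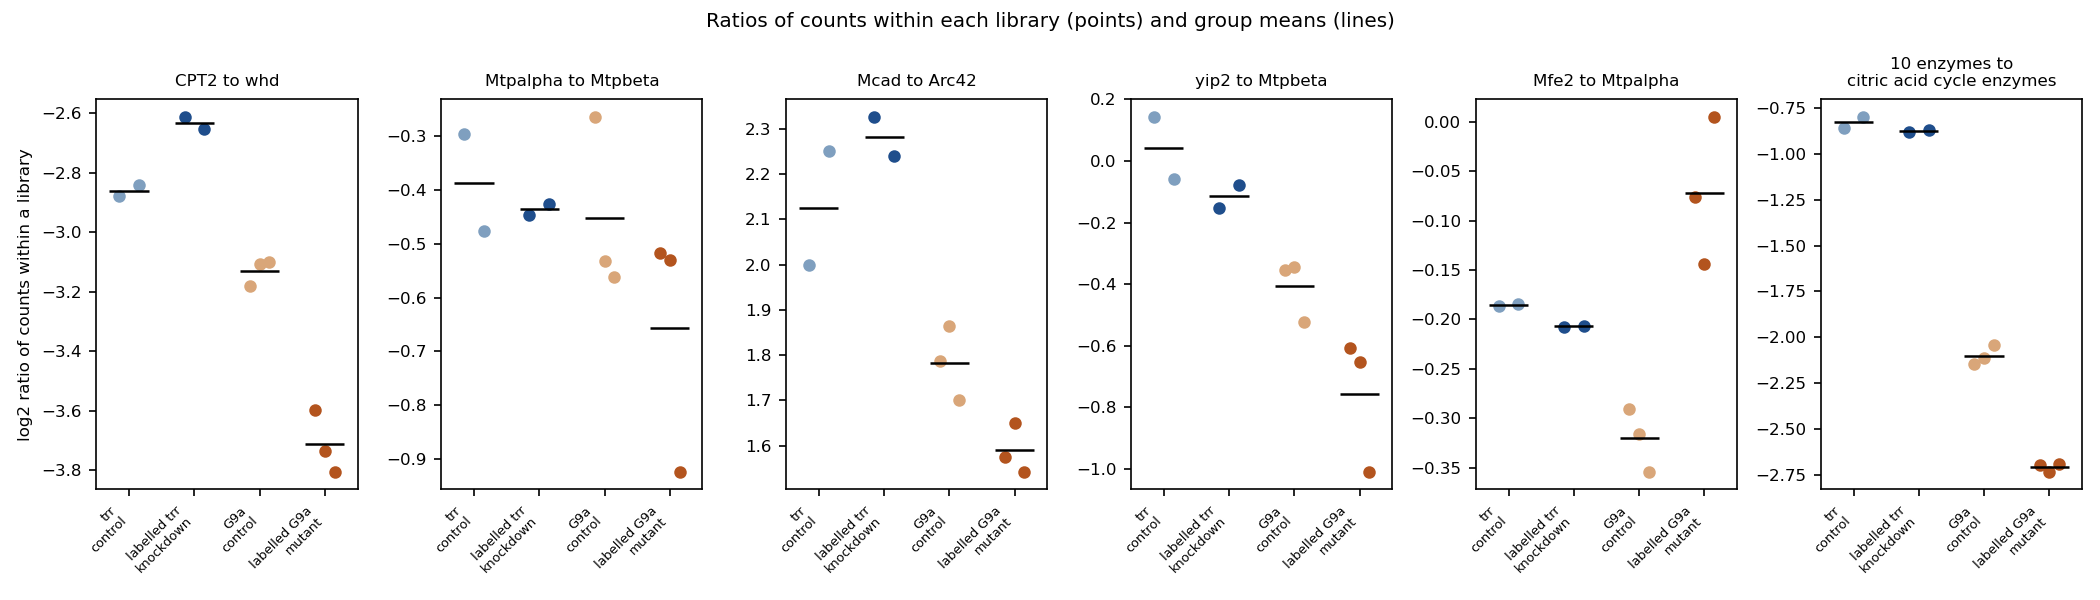
Log2 ratio of counts within each library for 5 pairs of enzymes and for the sum of the 10 enzymes over the sum of 7 citric acid cycle enzymes (points, one per library; lines, group means). *CPT2* relative to *whd* was higher in the labelled knockdowns and lower in the labelled mutants, and the 10 enzymes relative to the citric acid cycle differed little for *trr* (means -0.83 and -0.88) and widely for *G9a* (means -2.10 and -2.70).

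Read as calls, with an adjusted p under 0.05 and a fold change over 1.5, 7 of the 10 enzymes were called lower in the *G9a* comparison (*CPT2*, *Mtpalpha*, *Mcad*, *Arc42*, *yip2*, *scu* and *Echs1*), where 5.57% of 12329 genes were called lower, or 7.29% of the 5584 genes with at least the mean count of the least counted member. The other 3, *whd*, *Mtpbeta* and *Mfe2*, were at 67.8%, 66.9% and 68.7% of control and so fell short of the fold. *Arc42*, at 65.0% of control, was the called member nearest the limit, and its call was lost without *G9a* control replicate 2 or 3 or without mutant replicate 1 or 2. *Mtpbeta* was called without mutant replicate 3 (-0.73) and also with the replicate number as a block (-0.59), and *whd* without mutant replicate 2 (-0.66). All 10 groups not overlapping in the lower direction stood beside 16.7% of all genes tested, and the median log2 fold change of the 10 was -0.76 beside 0.04 over all genes. The members were chosen with this contrast known, so nothing further is read from these counts.

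In the *trr* comparison none of the 10 enzymes was called by edgeR, where 1.03% of 11416 genes were called in either direction, nor by DESeq2, and 1 of the 10 had an unadjusted p under 0.05. The number of genes called in all rested on single libraries, at 0 without knockdown replicate 1, 1 without knockdown replicate 2, 756 without control replicate 1 and 2009 without control replicate 2. Groups did not overlap upward for *Mcad*, *Arc42*, *Mtpalpha*, *scu* and *Mfe2*, beside 28.1% of all genes, and downward for *whd* and *CPT2*, beside 28.5%. The median log2 fold change was 0.16 beside 0.00078 over all genes.

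**Figure D3:**
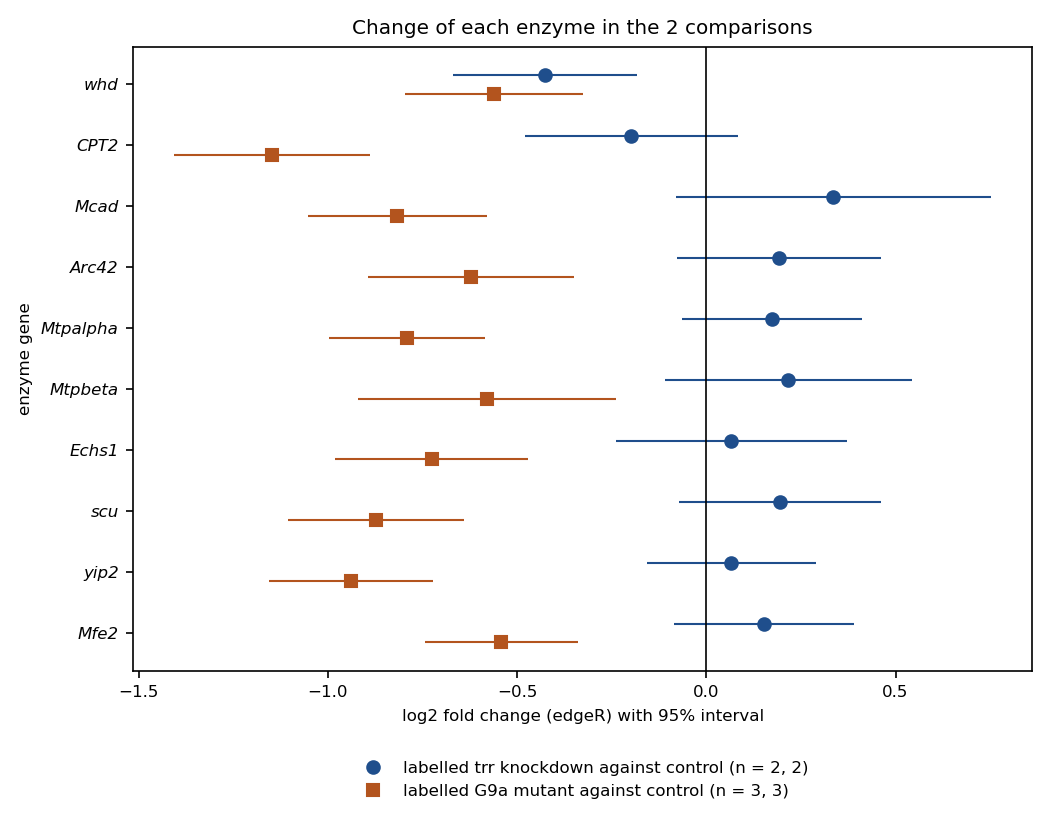
Log2 fold change of each enzyme with its 95% interval from edgeR for the labelled knockdowns (circles, n = 2 and 2) and the labelled mutants (squares, n = 3 and 3), each against its own control. All 10 squares lie below 0, from -1.15 for *CPT2* to -0.54 for *Mfe2*, whereas 9 of 10 *trr* intervals include 0, with that of *whd* (-0.67 to -0.18) as the exception.

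The change of each enzyme in the *trr* experiment was then set against its change in the *G9a* experiment, in one fit over the 10 libraries. The members were chosen with both changes known, so the intervals and calls of this difference are a description only. The difference was above 0 with a 95% interval above 0 for 9 of the 10 enzymes, and it was largest for *Mcad* (1.16 on the log2 scale, SE 0.20, interval 0.71 to 1.60), *scu* (1.07, SE 0.16, interval 0.72 to 1.42) and *yip2* (1.01, SE 0.14, interval 0.70 to 1.31). For *CPT2*, which was lower in both experiments, it was 0.95 (SE 0.17, interval 0.57 to 1.33). *whd* was the exception at 0.14 (SE 0.15, interval -0.20 to 0.48), an interval that leaves room for a difference in either direction. The same 9 enzymes were called, beside 5.49% of 12871 genes called in that direction, and 5 of them were called without knockdown replicate 1 and 6 without *trr* control replicate 1 or knockdown replicate 2. The experiments also differ in genetic background and in whether the manipulation was restricted to neurons, and these cannot be told apart from the difference between trr and G9a.

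The order of the 4 groups was the same for 8 of the 10 enzymes, with the highest mean in the labelled knockdowns, then the *trr* controls, the *G9a* controls and the labelled mutants. Neighbouring groups overlapped for *Mtpbeta*, *yip2* and *Echs1* between the 2 *trr* groups and for *Mtpbeta* between the 2 control groups. For *CPT2* the *trr* controls came first, and *whd* was the only enzyme whose level in the labelled knockdowns (161.8 CPM) lay below that in the *G9a* controls (178.4 CPM). The gap between the controls of the 2 experiments was wide for some enzymes, 545.5 against 175.2 CPM for *Echs1* and 402.1 against 138.6 CPM for *Mcad*, and narrow for *Mtpbeta*, 204.4 against 179.0 CPM. For *Echs1*, *Mcad*, *Arc42* and *scu* the log2 ratio between controls (1.64, 1.54, 1.18 and 1.02) was larger than the log2 fold change in either comparison.

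Summed over the 10 enzymes, the level was 2075 and 2477 CPM in the *trr* controls and 2528 and 2435 CPM in the labelled knockdowns. It was 1212, 1237 and 1275 CPM in the *G9a* controls and 713, 753 and 795 CPM in the labelled mutants. The *G9a* groups were again apart, and the 2 labelled knockdowns lay within or just above the range of the *trr* controls. The 7 citric acid cycle enzymes measured, which oxidize the acetyl-CoA that beta-oxidation delivers, summed to 5256 to 5361 CPM in the *G9a* controls against 4608 to 5125 CPM in the labelled mutants, lower without overlap, and to 3771 and 4309 CPM in the *trr* controls against 4664 and 4454 CPM in the labelled knockdowns. Of these, 6 had lower values and 1 a higher value in the *G9a* comparison, with log2 fold changes of -0.17 (*Ogdh*) to 0.03 (*SdhB*) and a median of -0.11. None was called by edgeR or DESeq2, and 0 had an unadjusted p under 0.05. In the *trr* comparison 6 had values above 0, with a range of -0.18 for *mAcon1* to 0.35 for *SdhA*, and 0 were called by either tool or had an unadjusted p under 0.05. *Mdh2* was called without *trr* control replicate 2.

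Other genes of fatty acid oxidation and related acyl-CoA enzymes were taken as 6 lists of 31 genes. Of these, 28 were matched and tested. The lists go by enzyme family, and not every gene in them need act in beta-oxidation. Like the members, the lists were chosen with earlier results of these data known. Calls and adjusted p-values of list genes, including the lipases and regulators below, are therefore given only as a description. In the *G9a* comparison 8 of the 28 were called, all lower, beside 5.57% of all genes called lower. When one *G9a* library was left out, 4 to 6 of the 28 were called. Log2 fold changes were negative for 23 and positive for 5, with a median of -0.44 beside 0.04 over all genes. For *trr*, 15 had positive and 13 negative values with a median of 0.03. There edgeR called 0, and 12 had an unadjusted p under 0.05, 8 higher and 4 lower. The share of all genes at that unadjusted limit is not given, here or below, so these counts are a description only. DESeq2, which called 510 genes in all, called 3 of the 28 (*CG9547*, *CG4598* and *Dci*). Between 0 and 9 were called when one *trr* library was left out, 9 without control replicate 2.

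Acyl-CoA synthetases activate fatty acids before the carnitine shuttle. *bgm*, which acts on very long chains, had the lowest *G9a* log2 fold change of the 28 genes, -1.33 (SE 0.09, edgeR adjusted p = 0.000134). Its counts were 3804 and 3708 in the *trr* controls, 5282 and 4740 in the labelled knockdowns, 2319, 2437 and 2322 in the *G9a* controls, against 976, 1240 and 1209 in the labelled mutants. It fell in the *G9a* comparison, and its *trr* value was 0.42 (SE 0.08, adjusted p = 0.0891), not called. *Acsl*, a long-chain synthetase, also fell (-0.64, adjusted p = 0.0385), but this call was lost in each fit that left out one *G9a* library, with adjusted p up to 0.0929. The third, *pdgy*, was at -0.45 in the *G9a* and 0.39 in the *trr* comparison and was called in neither.

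Of the other carnitine shuttle genes, *colt*, the carrier of acylcarnitines across the inner membrane, fell in the *G9a* comparison (-0.68, adjusted p = 0.0337), with *CRAT*, the carnitine acetyltransferase, at -0.41 and not called. The call of *colt* was kept only without mutant replicate 3 among the fits that left out a *G9a* library, and its adjusted p was 0.0669 to 0.119 in the other 5. For *trr*, *CRAT* was at -0.38 and *colt* at 0.05, neither called with all *trr* libraries in the fit.

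Among 7 other acyl-CoA dehydrogenases and their electron acceptors, all 7 had negative values in the *G9a* comparison. Of these, 3 were called lower, beside 5.57% of all genes. *Acadvl*, the very long-chain acyl-CoA dehydrogenase, was at -0.78 (SE 0.09, adjusted p = 0.00127), *CG9547*, the counterpart of human glutaryl-CoA dehydrogenase, at -0.81 (adjusted p = 0.0090) and *CG4860* at -0.68 (adjusted p = 0.0390). The call of *CG9547* was lost without *G9a* control replicate 2 (adjusted p = 0.0502). That of *CG4860* was kept without that replicate and lost without any of the other 5 (adjusted p = 0.0620 to 0.132). *CG3902* had the value closest to 0, -0.27. Under the *trr* label the 7 ran from -0.21 for *CG6638* to 0.65 for *CG9547*. *CG9547* was called higher by DESeq2 and by edgeR with the replicate number as a block. It was at 0.61 without *trr* control replicate 1 and at 0.69 without replicate 2. *CG4860* was at 0.64, or at 0.79 without *trr* control replicate 2.

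The hydratases and isomerases behaved less uniformly. Of 7 genes, *CG4598* was called lower in the *G9a* comparison (-0.92, SE 0.11, adjusted p = 0.00179), and the others ranged to 0.25 for *CG6984*, with a median of -0.11. In the *trr* comparison 5 of the 7 had negative values with a median of -0.49, the lowest being -0.97 for *CG6984*, whose counts were 29 to 165. Of these, *CG4598*, at -0.63, and *Dci*, at -0.85, were called lower by DESeq2 but not by edgeR on the *trr* libraries without a block. For *CG4598* the adjusted p was 0.00623 with DESeq2 and 0.0916 with that edgeR fit. With the replicate number as a block edgeR called *CG4598*, *Dci* and *CG6984*. *CG4598* was also called in the edgeR fit of all 10 libraries. *Had2* was the one called gene of the 3 remaining hydroxyacyl-CoA dehydrogenases and thiolases, at -0.84 in the *G9a* comparison (adjusted p = 0.0108, or 0.0572 without control replicate 2), with *Acat2* closest to 0 at -0.16. Against the *trr* controls *Had2* was at 0.58 and *ScpX* at -0.06, neither called with all *trr* libraries in the fit. Without control replicate 2 *Had2* was at 0.70.

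None of the 6 peroxisomal acyl-CoA oxidases was called in either comparison by edgeR or DESeq2. In the *G9a* comparison they ran from -0.58 for *CG4586* to 0.34 for *CG17544*, and 5 had an unadjusted p under 0.05, 4 lower and 1 higher. The *trr* values ran from -0.53 for *Acox57D-p* to 0.67 for *CG4586*, and 2 had an unadjusted p under 0.05, both higher. *CG4586* and *Acox57D-p* were called without *trr* control replicate 2.

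Of 8 lipases and regulators, 2 were called lower in the *G9a* comparison, beside 5.57% of all genes. *ACC* makes malonyl-CoA, the inhibitor of carnitine palmitoyltransferase 1, and was at -0.67 (SE 0.10, adjusted p = 0.00413). *AkhR* is the receptor for adipokinetic hormone, which mobilizes stored fat, and was at -1.05 (SE 0.12, adjusted p = 0.00163). The triglyceride lipase *bmm*, at 0.12, had the highest value of the 8 and was not called. For *trr*, edgeR and DESeq2 called 0 of the 8, and 2 had an unadjusted p under 0.05, both lower. Values there ran from -1.73 for *Akh*, which was near the limit of detection (2 and 12 control counts against 0 and 4 counts under the knockdown label) with an interval of -5.01 to 1.55, to 0.25 for *Hnf4*. *Akh* was called without *trr* control replicate 1 and *srl* without replicate 2.

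**Figure D4:**
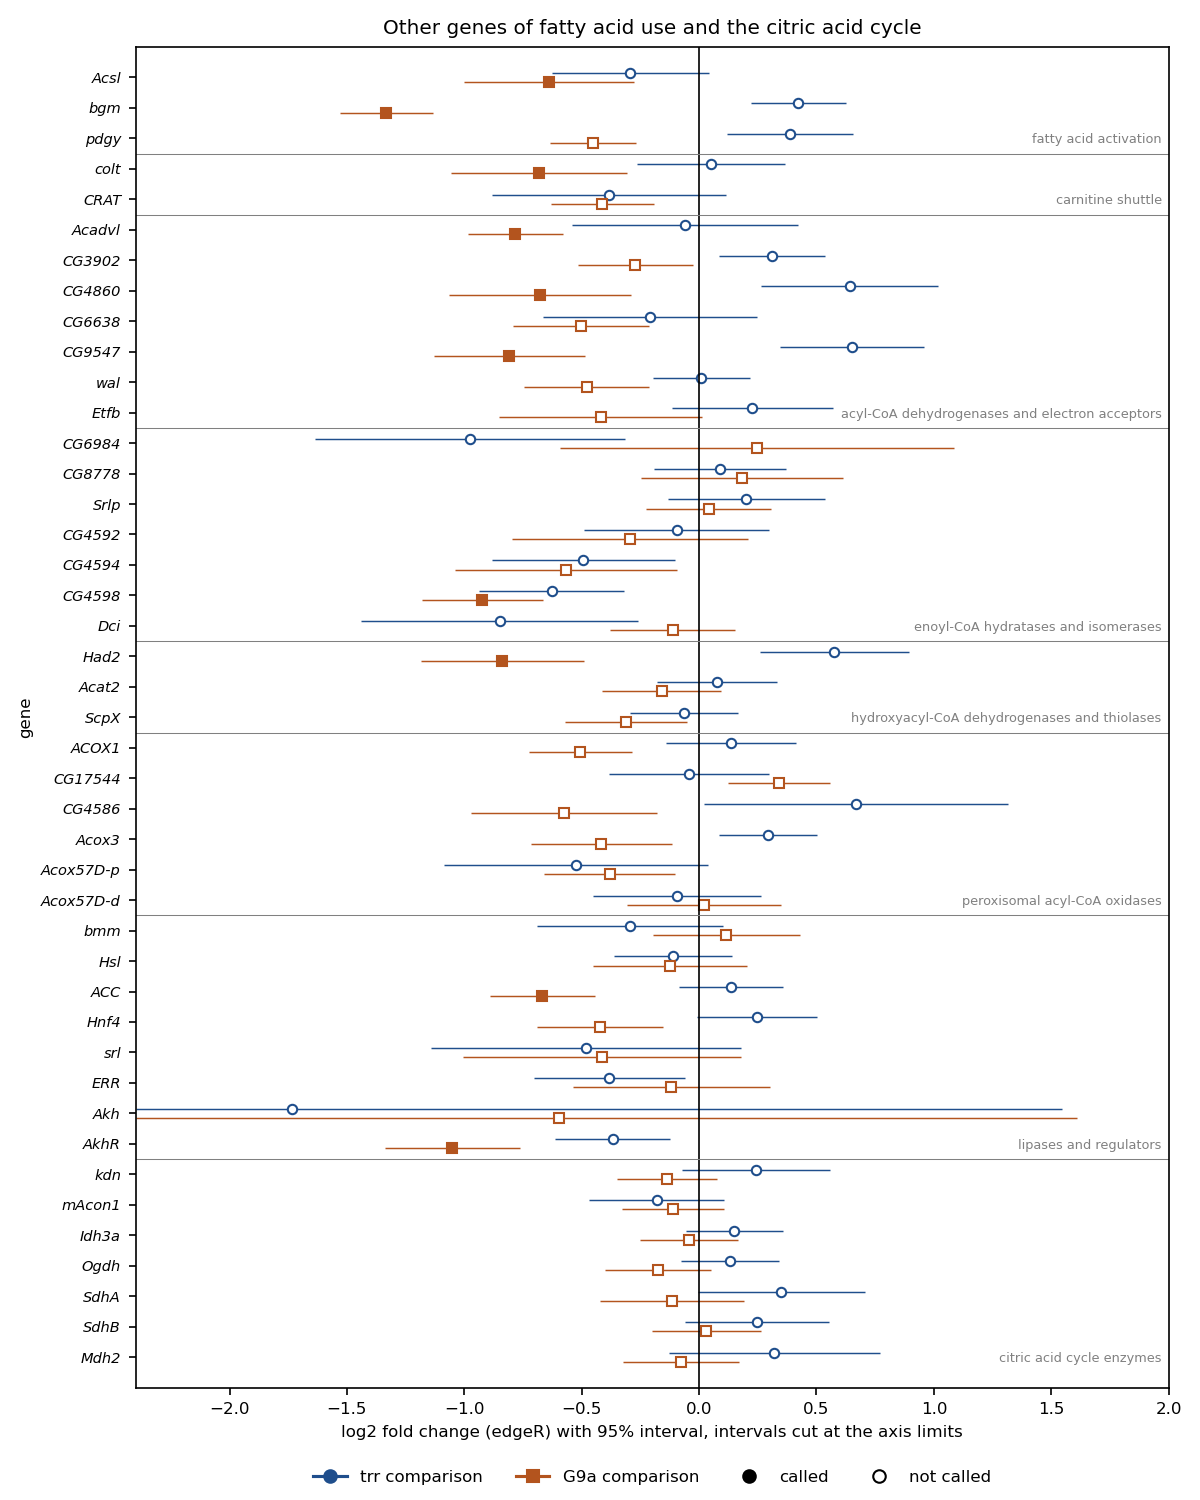
Log2 fold change with 95% interval (edgeR) of 43 other genes, grouped by step, in the *trr* (circles) and *G9a* (squares) comparisons; filled symbols passed the test and the fold limit, and intervals are cut at the axis limits. The 10 filled symbols are all from the *G9a* comparison and lie below 0, and the 7 citric acid cycle enzymes lie close to 0 there.

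Markers of cell types also differed between groups, and not all in the direction of the 10 enzymes. The summed level of 5 fat body genes was 573 to 677 CPM in the *G9a* controls and 258 to 355 CPM in the labelled mutants. Of the 5, 3 were called lower (*apolpp* at -0.82, *Lsp2* at -1.22 and *Apoltp* at -0.96), beside 5.57% of all genes. The other 2, *Fbp1* and *Fbp2*, were at 1.77 and 1.71, not called and of few counts. The yolk protein genes of the female fat body, *Yp1*, *Yp2* and *Yp3*, were at -0.92, -1.18 and -0.63, none called. The summed level of 4 glial genes was 459.9 to 572 CPM in controls and 343 to 398 CPM in labelled mutants, with *alrm* called lower at -1.62. That of 7 muscle genes was 9824 to 10627 CPM in controls and 8003 to 8527 CPM in labelled mutants. Of the muscle genes *Act88F* was called lower at -0.62, and *fln*, at 0.73, was called higher by DESeq2 and not by edgeR. Photoreceptor genes went the other way, at 47474 to 53379 and 64691 to 66217 CPM. Neuronal genes overlapped, at 5181 to 5329 CPM in controls and 5274 to 5814 CPM in labelled mutants. The oenocyte gene *Cyp4g1* was at 27, 61 and 279 counts in controls and 6, 162 and 1227 counts in labelled mutants (1.58, not called). In the *trr* experiment fat body genes were at 2013 to 2290 CPM in controls and 2263 to 2328 CPM in the labelled knockdowns, muscle genes at 3390 to 3936 and 4200 to 4429 CPM, and glial genes at 699.9 to 721 and 611 to 648 CPM. *Yp1* and *Yp3* were called lower there (-1.15 and -0.96). The part of these markers in the values of the 10 enzymes was not tested. In bulk heads, fewer cells of a type and less RNA per cell cannot be told apart. Reads not aligned were 12.2% to 20.4% of each file in the *G9a* controls and 7.86% to 9.30% in the labelled mutants, and their part was not tested either.

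Of the 10 genes, 6 overlap another gene in the annotation, and the strand setting of the counting is not given in the sources used here. *Mtpalpha* overlaps *brwl* (553 to 1075 counts), *Mtpbeta* overlaps *CG5569* (662 to 1125 counts) and *Mfe2* overlaps *kat80* (444 to 884 counts). These partners had *G9a* log2 fold changes of 0.16, 0.07 and 0.16. The partners of *whd*, *Mcad* and *Echs1* that were counted had at most 96 counts. *CPT2*, *Arc42*, *yip2* and *scu* overlap no other gene in that table.

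The 10 enzymes were not equally typical of their own average. With each gene centred on its mean log2 CPM over the 10 libraries, the root mean square distance of a member from the mean profile of the other 9 was smallest for *yip2* (0.0933) and largest for *Mcad* (0.518), *whd* (0.510) and *Echs1* (0.480). Of the genes outside the 10 with a mean of at least 100 counts, the profiles nearest to the mean of all 10 were those of *CG3842* (0.0844), *CROT* (0.0924), *D2hgdh* (0.0997), *Mgstl* (0.106) and *CG31705* (0.108). *CROT* is a carnitine octanoyltransferase, *D2hgdh* a hydroxyglutarate dehydrogenase and *Mgstl* a microsomal glutathione S-transferase. Their *G9a* log2 fold changes lay between -0.79 and -0.66 and their *trr* values between 0.01 and 0.33. These 5 were chosen by this likeness over the 10 libraries, so their fold changes carry no test.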

How the data were processed

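RNA-seq counts of 10 fly head libraries were analysed. The deposited counts are raw whole numbers per gene, which the authors obtained with HTSeq from uniquely placed BWA 0.6.1 alignments on dm3. The 5 summary lines of each file were left out of library sizes, with reads outside genes at 9.29% to 18.0%, ambiguous reads at 1.58% to 2.55% and unaligned reads at 7.86% to 20.4% of a file. Groups and replicate numbers came from the sample titles. The replicates are stated to be biological.

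Symbols and overlaps between genes were read from a RefSeq gene table for Release 6, none of whose coordinates are printed. Symbols were found for 15002 of 15682 genes, and 83 of 88 list genes were matched (*Fum1*, *Had1*, *hll*, *Fatp1* and *wupA* were not analysed here). Genes with at least 10 counts summed over a comparison were tested in R 4.3.3 with edgeR 4.0.16 (TMM, quasi-likelihood test, Benjamini-Hochberg adjustment over all genes tested), in each experiment alone, and the difference between experiments in a fit of all 10 libraries. A gene was called at an adjusted p under 0.05 and a fold change over 1.5, the limits used in the study. Intervals are 95% intervals of the edgeR coefficient of a single gene. DESeq2 1.42.0, other normalizations and filters, a replicate block, a covariate for reads outside genes and leaving out each library were alternatives. The scripts were tested on simulated data.

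The values reported come from fits without a replicate block, as in the study. Deviations of same-numbered *G9a* libraries from the group means correlated for each number (r = 0.287, 0.29 and 0.574 over 8036 genes), so the blocked value is given where it changed a call. The labels name no shared batch. The *trr* numbers did not pair (r = -0.299).

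The members and lists were chosen with earlier results of these data known. All 10 members are named; of the lists, called genes and otherwise the genes with the largest and smallest log2 fold change are named, and the 5 genes nearest to the mean profile. *pdgy*, *Dci*, *Mdh2* and *srl* were named after their values were seen. Levels per exon length had been planned and were not computed, since only genomic spans were at hand. The trr binding sites were not used here.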

Additional observations from a re-analysis of the deposited data

How the results depend on the processing

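All 10 enzymes stayed lower in the *G9a* comparison under each of 14 alternatives, with log2 fold changes from -1.23 (*CPT2*) to -0.48 (*Mtpbeta*), and 7 were called, or 8 with filterByExpr, the replicate block or the covariate for reads outside genes, and 6 to 8 when one library was left out. In the *trr* comparison *whd* and *CPT2* stayed below 0 and *Mcad*, *Arc42*, *Mtpalpha*, *Mtpbeta*, *scu* and *Mfe2* above 0 in all 12 alternatives, and *Echs1* and *yip2* turned below 0 without control replicate 1 alone. No member was called there, except *Mcad* without control replicate 2 (0 to 1). The difference between the experiments was above 0 for all 10 enzymes in 16 alternatives, with 8 or 9 called, or 5 to 9 when one library was left out.

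The total of genes called for *trr* was unstable. Against 118 (81 higher, 37 lower) it was 75 with 18 lower by library size alone, 510 (189 higher, 321 lower) with DESeq2, 29 (25 higher, 4 lower) without a filter, and 246 with 168 lower in a fit of all 10 libraries. Leaving out one library gave 0 to 2009 (0 to 676 higher, 0 to 1333 lower). The other beta-oxidation genes called went from 0 to 3 with DESeq2 and to 1 in the fit of all libraries, and to between 0 and 9 with one library left out. The cause was not tested.

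With the replicate number as a block, 819 genes (320 higher, 499 lower) and 4 other beta-oxidation genes were called for *trr*. With crossed pairs, an alternative chosen after seeing the data, the counts were 902 (325 higher, 577 lower) and 5. In the *G9a* comparison the block gave 1094 genes against 932 and changed no call among the members but that of *Mtpbeta*. In the difference between experiments it gave 1105 against 1192 and the same number of members.

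For *G9a*, leaving out one library gave 652 to 944 genes (142 to 222 higher, 492 to 722 lower). Of the 6 lists, 4 to 6 genes were called in place of 8. With the covariate, 5 of the 8 were called, without *Acsl*, *colt* and *CG4860* (edgeR adjusted p = 0.0829, 0.0708 and 0.0863), whose log2 fold changes were -0.63, -0.71 and -0.63 against -0.64, -0.68 and -0.68 without it. The difference between experiments was called in 377 to 1596 genes (286 to 767 higher, 91 to 829 lower) when one library was left out. With 2 *trr* libraries a group, the narrowest 95% interval of a member was -0.16 to 0.29 on the log2 scale (*yip2*). Such an interval is not a limit of detection. Larger *trr* values, such as 0.65 for *CG9547* and -0.63 for *CG4598*, were also not called by edgeR on the *trr* libraries without a block. Both were called with the replicate number as a block. A change that was not called may therefore still be present. A fit with 1 library in a group assumes that it varies like the others.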
